A study of Mus musculus with 8 samples.

Results

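Visceral adipose precursors (viAPs) of mice fed a high-fat diet (HFD) were compared with subcutaneous precursors (scAPs) of mice fed the same diet. The comparison rests on 4 of the 8 arrays of the series, HFD viAP replicates 5 and 6 and HFD scAP replicates 7 and 8. It covers all 21789 of 35556 probe sets that carry exactly 1 gene symbol, which stand for 19938 genes. The mice were male C57BL/6J aged 7 to 8 weeks and were fed for 3 days. Each array held RNA pooled from 3 mice, so that a group has 2 pools. The viAPs came from perigonadal fat (viWAT) and the scAPs from inguinal fat (scWAT). In both groups the cells were what remained after bead depletion of CD45 and CD31 positive cells and were then held by beads against SCA-1. The other 4 arrays came from mice on standard diet (SD), 2 labelled viAP and 2 labelled scAP.

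Adipose precursors are stromal cells of fat tissue that can divide and turn into adipocytes. Visceral and subcutaneous depots arise from different embryonic regions, and their precursors keep the expression of developmental transcription factors after isolation. Tbx15 and genes of the Hox C cluster are known from subcutaneous fat. Wt1, which is also active in the mesothelium that covers visceral organs, and Tcf21 are known from visceral fat.

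Pdgfra, the PDGF receptor used to recognise these cells, had log2 levels of 11.55 and 11.52 on the viAP arrays and of 11.56 and 11.46 on the scAP arrays. Cd34 stood at 12.18, 12.21, 12.11 and 12.30 in the same order. The groups overlapped for both genes, with differences (viAP minus scAP) of 0.02 (standard error 0.07) and -0.01 (standard error 0.10). Other precursor markers did differ, as given below. Ptprc, which encodes CD45, stood between 4.81 and 5.67 on the 4 arrays, under the array medians of 5.95 to 6.02. Ly6a, the gene of SCA-1, was not analysed here. The Pearson correlation over probe sets, which do not count as replicates, was 0.996 between the viAP arrays, 0.992 between the scAP arrays and 0.98 to 0.982 across the depots. On SD the array labelled viAP replicate 4 had scAP levels of the depot genes (Tbx15 at 9.77 and Tcf21 at 5.32). SD viAP values below are those of replicate 3 unless both arrays are named, and this array was kept with its depot genes in view.

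Between HFD viAPs and HFD scAPs 145 probe sets passed a Benjamini-Hochberg adjusted p under 0.05 with a difference of at least 2-fold (limma on the 4 arrays, 0.665% of those tested). Of these 97 probe sets of 83 genes were higher in viAPs (0.445%) and 48 probe sets of 48 genes were higher in scAPs (0.22%). All differences below are viAP minus scAP on the log2 scale, so that 1 is 2-fold and a positive value is higher in viAPs. At 1 probe set per gene, the one with the highest mean, 79 genes passed as higher in viAPs (0.396%) and 48 as higher in scAPs (0.241%). These shares over all genes are the ones to set beside the counts of passing list members given below. Regardless of p, 493 probe sets differed at least 2-fold, and on 492 of these the arrays of the depots did not overlap. Of all genes 20.3% were higher in viAPs without overlap and 20% in scAPs. The median standard deviation between replicates was 0.08 in viAPs and 0.11 in scAPs. A 2-fold difference of means thus mostly fixes the lack of overlap, which is no separate support. Of those 493, 317 were higher in viAPs and 176 in scAPs. The median difference over all probe sets was -0.01. With 2 arrays per group many large differences had adjusted p-values a little above 0.05. Leaving out any 1 of the 4 arrays left 0 probe sets past the threshold in limma, with 2231 to 4075 at an unadjusted p under 0.05. The naming rule gave 64 passing probe sets, of which 29 no longer passed in a fit of all 8 arrays, with adjusted p-values of 0.0511 to 0.413. They were those of Tbx15, Tcf21, Wt1, Tbx5, Hoxa5, Ebf3, Nr4a1, Ccl8, Il1r2, Igfbp5, Mmp27, Pde7b, Dkk2, Slit2, Thbs2, Thbd, Pla2g2e, Plin4, Mrap, Des, Rdh10, Racgap1, Hp, Trf, Lcn2, Cp and Gsta3 and both of Col6a5. Outside the rule Emx2 (0.08) and Fbln7 (0.0973) no longer passed there either. Because pools of purified cells were measured, a lower share of some cell type and less RNA per cell of that type cannot be told apart.

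**Figure D1:**
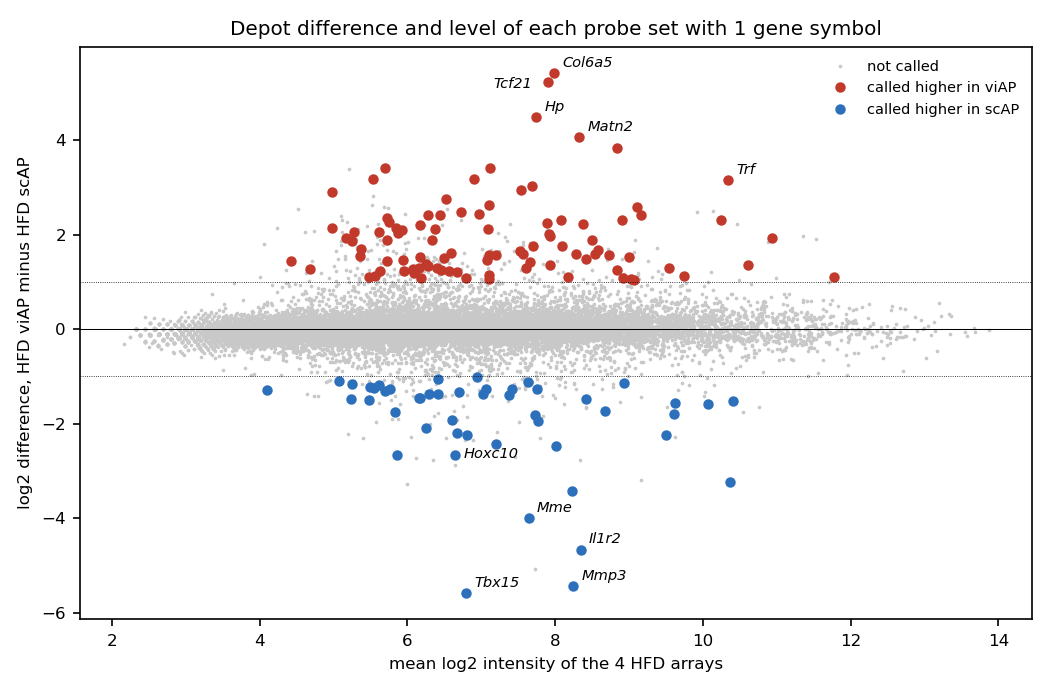
Log2 difference between HFD viAPs and HFD scAPs (vertical axis) against the mean log2 intensity of the 4 HFD arrays (horizontal axis) for each of 21789 probe sets, with dotted lines at 2-fold. The 97 probe sets that passed as higher in viAPs (red) and the 48 higher in scAPs (blue) spread over dim and bright levels, from Col6a5 at 5.42 down to Tbx15 at -5.59, and Hoxc10 lies among those that did not pass.

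Tbx15 had the largest difference toward scAPs, and Tcf21 and Wt1 were higher in viAPs. Tbx15, a T-box factor of the embryonic body wall and limb, had log2 levels of 3.91 and 4.09 on the viAP arrays and of 9.53 and 9.63 on the scAP arrays. The groups lay far apart, with a difference of -5.59 (standard error 0.10, adjusted p = 0.0151), or 48.0-fold. Tcf21, a basic helix-loop-helix factor of visceral mesoderm, showed the opposite order, at 10.43 and 10.61 in viAPs and 5.36 and 5.21 in scAPs. Its difference was 5.24 (standard error 0.10, adjusted p = 0.0177), or 37.7-fold. Wt1, a zinc finger factor, stood at 8.94 and 9.09 in viAPs and at 6.27 and 5.88 in scAPs (difference 2.94, standard error 0.17, adjusted p = 0.0407). Hoxc10 had 4.91 and 5.52 in viAPs and 8.09 and 8.08 in scAPs. Its arrays did not overlap and the difference was -2.87 (standard error 0.24), but its adjusted p of 0.0559 missed the threshold. In the fit of the 7 arrays without the one labelled SD viAP replicate 4 it was 0.00282. All 4 markers thus lay in the direction of their depot. When all 8 arrays were fitted, so that the array labelled SD viAP replicate 4 entered the spread, the adjusted p was 0.0755 for Tbx15, 0.0535 for Tcf21 and 0.0904 for Wt1.

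**Figure D2:**
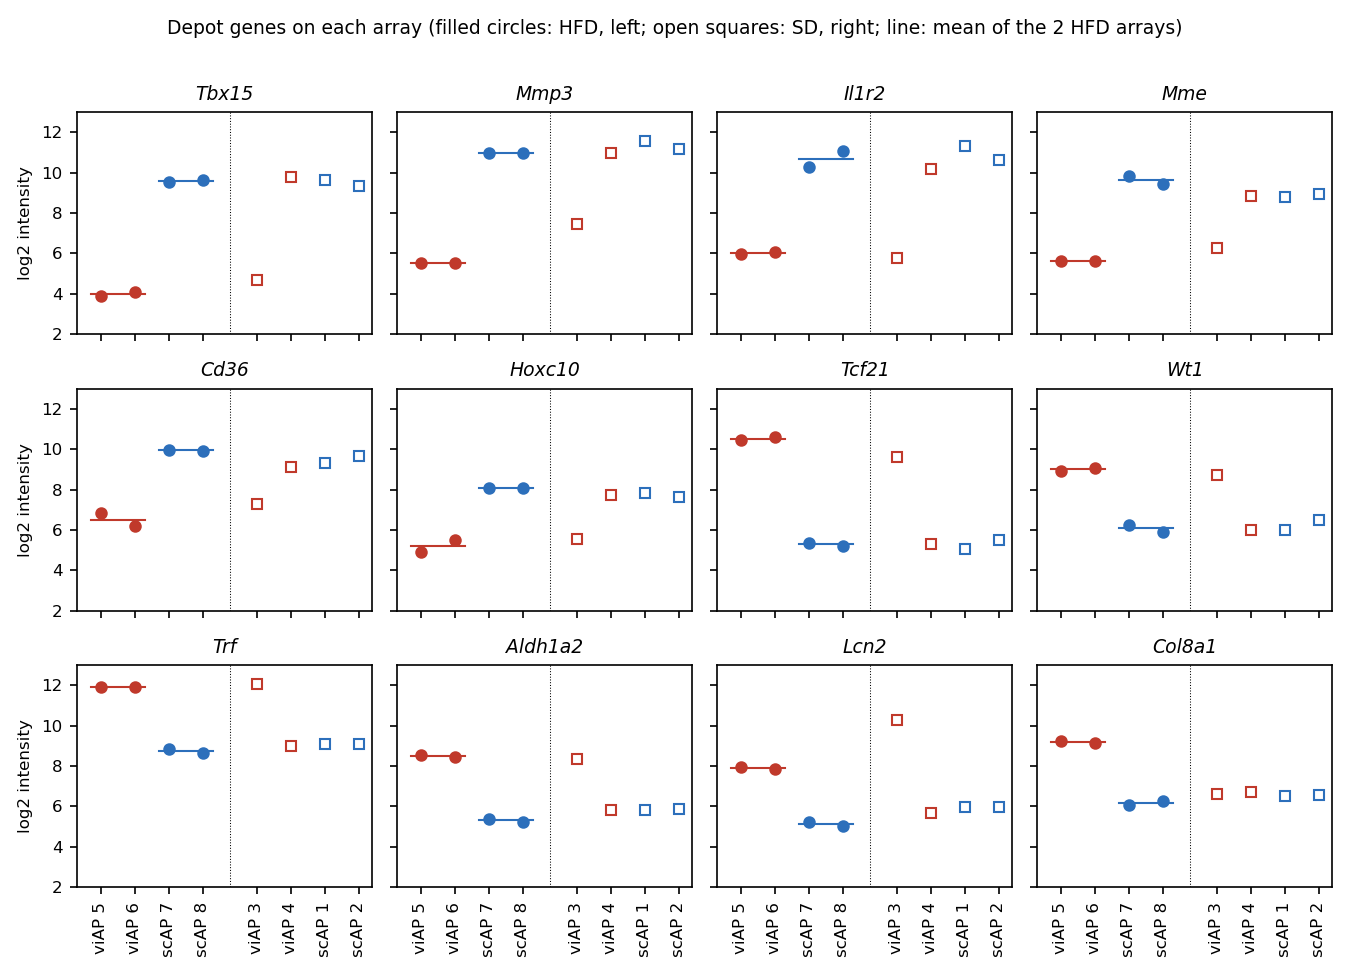
Log2 intensity (vertical axis) of 12 genes on each of the 8 arrays (horizontal axis), red for viAP and blue for scAP, with HFD arrays as filled circles left of the dotted line, SD arrays as open squares right of it, and lines at the mean of the 2 HFD arrays. On HFD the depots do not overlap for any of the 12 genes, and among SD arrays the one labelled viAP 4 lies with the scAP arrays (Tbx15 at 9.77), while Col8a1 stays between 6.54 and 6.73 on all 4.

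Of 77 measured patterning transcription factors outside the Hox clusters, 2 passed as higher in viAPs (Tcf21 and Wt1), 4 as higher in scAPs and 71 did not pass. The median of this list was -0.01, as over all genes. Besides Tbx15, the factors higher in scAPs were Tbx5, Osr2 and Emx2. Tbx5, a T-box factor of forelimb and heart, was at 4.52 on both viAP arrays and at 6.94 and 7.44 in scAPs (difference -2.67, standard error 0.20, adjusted p = 0.0491). Osr2, a zinc finger factor of limb and palate, had a difference of -1.59 and Emx2, a homeobox factor, of -1.45. Several factors differed at least 2-fold with arrays that did not overlap and did not pass, 6 toward viAPs and 8 toward scAPs with the passing ones included. Among them Shox2 had -1.80 (adjusted p = 0.0883) and Prrx1 -1.03 (adjusted p = 0.0605), and Meis1, a partner of Hox proteins, had 1.22 (adjusted p = 0.0544). Over all genes, 1.15% were 2-fold higher in viAPs without overlap and 0.868% in scAPs.

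Hox genes give cells their position along the body axis. Of 37 measured Hox genes only Hoxa5 passed, with log2 levels of 7.32 and 7.23 in viAPs and of 5.49 and 5.29 in scAPs (difference 1.89, standard error 0.10, adjusted p = 0.0407). Neighbours in the Hox C cluster lay in opposite directions. Hoxc8 stood at 10.07 and 9.94 in viAPs against 9.14 and 9.07 in scAPs (difference 0.90, adjusted p = 0.0597). Hoxc9, next to it, stood at 6.92 and 6.95 against 7.66 and 7.85 (difference -0.82, adjusted p = 0.0761), and Hoxc10 at the -2.87 given above. These 3 genes had arrays that did not overlap, and none of them passed. In the Hox B cluster the differences ran from -0.33 to 0.32 and in the Hox D cluster from -0.12 to 0.50, and 0 genes passed in either. At an unadjusted p under 0.05 there were 2 of 9 in Hox B and 0 of 9 in Hox D, against 8.73% of all genes toward viAPs and 7.59% toward scAPs.

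**Figure D3:**
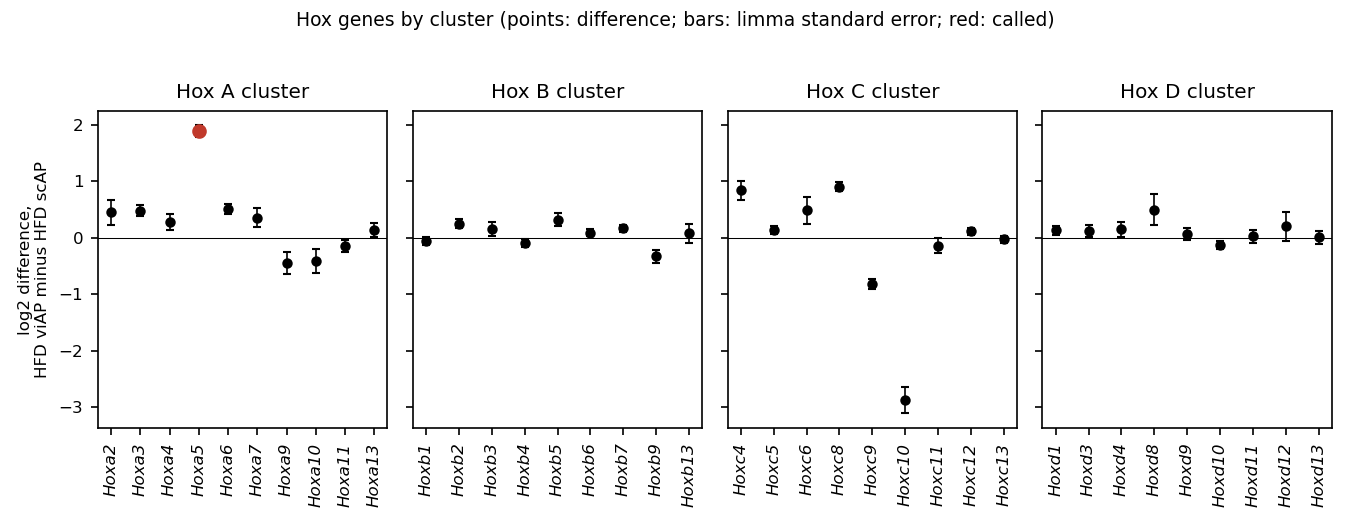
Log2 difference between HFD viAPs and HFD scAPs (vertical axis) of each measured Hox gene, in 4 panels by cluster and ordered by gene number (horizontal axis), with limma standard errors as bars and the gene that passed in red. Hoxa5 stands at 1.89 and Hoxc10 at -2.87, and the genes of the B and D clusters stay between -0.33 and 0.50.

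Mmp3, Il1r2, Mme and Igfbp5 were higher in scAPs. Mmp3, a matrix metalloproteinase (stromelysin), was at 5.52 on both viAP arrays and at 10.97 on both scAP arrays (difference -5.45, standard error 0.06, adjusted p = 0.0083, or 43.6-fold). The deposited values were whole numbers, so that equal replicates can occur and make the spread too small. Il1r2, a decoy receptor that binds interleukin-1 without signalling, had 5.95 and 6.07 in viAPs and 10.30 and 11.06 in scAPs (difference -4.67, standard error 0.29, adjusted p = 0.043). Mme, the membrane peptidase neprilysin, was at 5.64 on both viAP arrays and at 9.83 and 9.45 in scAPs (difference -4.00). Igfbp5, which binds insulin-like growth factors, was bright in both depots, at 8.50 and 8.99 in viAPs and 11.83 and 12.15 in scAPs (difference -3.24, standard error 0.22). The arrays of the depots did not overlap for any of these 4 genes. Abcc9, a subunit of an ATP-sensitive potassium channel, had a difference of -2.42, Mmp27 of -2.48 and Pde7b, a cyclic AMP phosphodiesterase, of -2.25. Sfrp2, a secreted modulator of Wnt signalling, stood at 9.75 and 9.59 in viAPs and at 11.23 and 11.59 in scAPs and missed the threshold (difference -1.75, adjusted p = 0.0603). It was 0.00731 in the fit of 7 arrays.

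Hp, Trf, Lcn2 and Cp were higher in viAPs. Hp, which encodes haptoglobin, the plasma protein that binds free hemoglobin, had log2 levels of 10.04 and 9.93 in viAPs and of 5.52 and 5.49 in scAPs (difference 4.48, standard error 0.07, adjusted p = 0.0151, or 22.3-fold). Trf, the iron carrier transferrin, had 11.90 and 11.94 against 8.87 and 8.65 (difference 3.16, standard error 0.10). Lcn2, lipocalin 2, which binds iron-loaded siderophores, had 7.93 and 7.86 against 5.25 and 5.04 (difference 2.75, standard error 0.10). Cp, the ferroxidase ceruloplasmin, had 11.95 and 11.86 against 10.06 and 9.87 (difference 1.93). All 4 were higher on both viAP arrays than on either scAP array. In the fit of all 8 arrays none of the 4 passed, with adjusted p-values of 0.151 for Hp, 0.0932 for Trf, 0.413 for Lcn2 and 0.0789 for Cp. Of 39 measured genes of heme, iron and the NRF2 response 3 passed as higher in viAPs and 0 in scAPs. These 3 were Lcn2, Cp and the glutathione transferase Gsta3 at 1.30, of which none passed with all 8 arrays. The other 36 did not pass, and the median was 0.06. Hp and Trf are not on this list and were named for the size of their differences. Hmox1, which encodes the heme-degrading enzyme HO-1, was at 11.59 and 11.84 in viAPs and at 11.54 and 11.42 in scAPs. Its difference was 0.23 (standard error 0.12, adjusted p = 0.46). Lrrn1, a leucine-rich repeat membrane protein, differed by 3.40 and Des, the intermediate filament desmin, by 2.63.

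Single collagen chains were higher in viAPs, while Col1a1 was higher in scAPs by less than 2-fold. Of 43 collagen chains 4 passed as higher in viAPs, 0 in scAPs and 39 did not pass, and the list median was -0.12. Col6a5, a chain of the collagen VI family, had 10.59 and 10.79 in viAPs and 5.09 and 5.46 in scAPs on the probe set with the largest difference (5.42, standard error 0.17, adjusted p = 0.03). A second Col6a5 probe set gave 3.83. Col8a1, a chain of the short network-forming collagen VIII, had 9.26 and 9.16 against 6.09 and 6.27 (difference 3.03, standard error 0.10, adjusted p = 0.03). Col4a6 differed by 1.30 and Col6a6 by 1.04. Col1a1, the main chain of type I collagen, had 12.27 and 12.27 in viAPs and 13.16 and 13.15 in scAPs. That difference of -0.89 had an adjusted p of 0.0451 but was under 2-fold. Col1a2 had -0.62 (adjusted p = 0.0695) and Col3a1 -0.45 (adjusted p = 0.103). Of the 43 chains 8 were higher in viAPs and 19 in scAPs without overlap, against 20.3% and 20% of all genes.

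Of 69 matrix glycoproteins and proteoglycans 2 passed as higher in viAPs, 3 in scAPs and 64 did not pass, with a median of 0.21. Without overlap 39 were higher in viAPs and 17 in scAPs, against 20.3% and 20% of all genes. With all 8 arrays 5 passed in viAPs and 2 in scAPs, and after the filter of the study 8 and 5. Matn2, a filament-forming adaptor protein, had 10.42 and 10.31 in viAPs and 6.15 and 6.44 in scAPs (difference 4.07, standard error 0.13, adjusted p = 0.03). Mgp, matrix Gla protein, an inhibitor of calcification, differed by 2.59. On the scAP side were Tgfbi (-1.80), Thbs2, an antiangiogenic thrombospondin (-1.51), and Fbln7 (-1.47). The related Thbs1 stood at 12.63 and 12.33 in viAPs against 10.77 and 10.39 in scAPs (difference 1.90, adjusted p = 0.0686), and Cilp at 2.47 (adjusted p = 0.065). The 2 thrombospondins thus lay in opposite directions, of which Thbs2 alone passed. Hmcn1, hemicentin 1, a very large matrix protein, was read by 77 probe sets. All 77 had a positive difference, from 0.41 to 3.42 with a median of 1.75, and 9 passed. Of 53 metalloproteinases and inhibitors Adamts3 passed in viAPs (1.14), Mmp3 and Mmp27 in scAPs, and 50 did not pass, with a median of 0.06.

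Retinoic acid is made from retinol in 2 oxidation steps, and genes of both steps were higher in viAPs. Aldh1a2, which makes retinoic acid from retinaldehyde, had 8.56 and 8.43 in viAPs and 5.39 and 5.25 in scAPs (difference 3.17, standard error 0.09, adjusted p = 0.03). Rdh10, the retinol dehydrogenase of the first step, had 9.51 and 9.41 against 8.19 and 8.23 (difference 1.25, adjusted p = 0.0407). The nuclear receptor Rxrg was lower in viAPs, at 4.58 and 4.46 against 5.64 and 5.58 (difference -1.09), all dim levels. Other enzymes of retinol oxidation lay toward scAPs without passing, Adh7 at -2.34 (adjusted p = 0.071) and Dhrs9 at -2.27 (adjusted p = 0.205). In all, 2 of 24 measured genes passed in viAPs, 1 in scAPs and 21 did not pass, with a median of -0.05.

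Secreted regulators of Wnt signalling differed in both directions. Sfrp1, an extracellular Wnt antagonist, had 11.40 and 11.39 in viAPs and 9.04 and 9.15 in scAPs (difference 2.30, standard error 0.07, adjusted p = 0.03). Rspo1, which strengthens Wnt signals through LGR receptors, had 9.44 and 9.55 against 7.15 and 7.38 (difference 2.23). Dkk2, which binds the Wnt coreceptor LRP6, was higher in scAPs, at 6.75 and 6.85 against 8.76 and 8.71 (difference -1.94, adjusted p = 0.0303). The other 54 of 57 measured genes did not pass, and the median was -0.06. Of the BMP and TGF-beta pathway 1 of 52 genes passed, Bmp6 at 1.35, with a median of 0.13. Of 49 axon guidance genes Slit2, a secreted ligand of Robo receptors, passed in viAPs (2.30) and Robo4 in scAPs (-1.45). None of 23 FGF ligands and receptors passed in limma. An unadjusted p under 0.05 was seen for 4 in viAPs and 2 in scAPs, against 8.73% and 7.59% of all genes.

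Esr1 was higher in scAPs, and Ptger4 and Tnfrsf11b were higher in viAPs. Esr1, estrogen receptor alpha, had 7.79 and 7.82 in viAPs and 9.51 and 9.56 in scAPs (difference -1.73, standard error 0.06, adjusted p = 0.0303). Of 30 nuclear receptors, Rorb (-2.09), Esr1 and Pparg passed in scAPs and the orphan receptors Nr4a2 (1.57) and Nr4a1 (12.33 and 12.32 against 11.19 and 11.25) in viAPs, while 25 did not pass. Without overlap 11 of the 30 were higher in viAPs and 8 in scAPs, against 20.3% and 20% of all genes (median 0.06). Ptger4, a prostaglandin E2 receptor, had 9.09 and 8.77 in viAPs against 6.97 and 6.86 (difference 2.02), and the phospholipase Pla2g2e differed by 1.06. Tnfrsf11b, osteoprotegerin, the decoy receptor for RANKL, had 8.36 and 8.03 against 5.67 and 5.83 (difference 2.44, standard error 0.15, adjusted p = 0.0407). The chemokines Ccl8 and Cxcl14 were higher in scAPs. Ccl8 had 5.46 and 5.17 in viAPs and 7.89 and 8.04 in scAPs (difference -2.65), and Cxcl14 8.48 and 8.29 against 10.77 and 10.47 (difference -2.23). Both passed, and 35 of 37 genes of the chemokine list did not. Of the list 7 were higher in viAPs and 12 in scAPs without overlap, against 20.3% and 20% of all genes, and the median was -0.07. Cxcl13, a B cell chemokine, had -3.20 (adjusted p = 0.0511) and Cxcl9 -2.78 (adjusted p = 0.0819). Among regulators of vessels Thbd, thrombomodulin, differed by 1.35 and Ednrb, an endothelin receptor, by -1.21.

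Pparg, Ebf3, Cd36 and Plin4 were higher in scAPs. Pparg, the main transcription factor of adipogenesis, had 7.16 and 7.08 in viAPs and 8.35 and 8.41 in scAPs (difference -1.26, standard error 0.07, adjusted p = 0.0407). Ebf3 passed too, at -1.11. Cebpa, which acts together with Pparg, had -0.35 (adjusted p = 0.148), and in all 33 of 35 adipogenic transcription factors did not pass (median -0.02). Cd36, a fatty acid transporter, had 6.82 and 6.21 in viAPs and 9.97 and 9.91 in scAPs (difference -3.43, standard error 0.24, adjusted p = 0.0461). Plin4, a lipid droplet coat protein, had -1.05, and Fabp4, a fatty acid binding protein, -1.44 (adjusted p = 0.0819). Of 37 genes of fatty acid uptake and storage these were the 2 passing ones, both in scAPs, and 7 lay higher in viAPs and 20 in scAPs without overlap, against 20.3% and 20% of all genes (median -0.12). Of 20 mature adipocyte genes Mrap, an accessory protein of melanocortin receptors, passed in viAPs (1.09), Plin4 in scAPs and 18 did not pass (median -0.14). Of 23 measured surface markers of precursors, Mme and Cd36 passed in scAPs and 21 did not pass (median 0.02). Of these markers 0 in viAPs and 5 in scAPs were at least 2-fold higher without overlap, against 1.15% and 0.868% of all genes. Dpp4, which marks interstitial progenitors, had 9.35 and 9.39 against 10.26 and 11.13 (difference -1.32, adjusted p = 0.218). Of 31 genes of DPP4-positive progenitors Mmp27 alone passed, and 4 were higher in viAPs and 18 in scAPs without overlap, against 20.3% and 20% of all genes (median -0.31). The number passing in scAPs was 0 with all 8 arrays, 5 after the filter of the study and 6 after median centring. Of 24 genes of ICAM1-positive committed preadipocytes Mgp passed in viAPs and Cd36, Cxcl14 and Pparg in scAPs (median 0.03). Of 16 genes of F3-positive regulatory cells Mgp and Rtn1 (1.46) passed in viAPs and Abcc9 in scAPs (median 0.28). These lists share members.

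Of the 50 lists that of mitosis had the largest share of members lying one way without overlap (92.7%). Of 82 measured members 5 passed as higher in viAPs, 0 in scAPs and 77 did not pass, yet 76 were higher on both viAP arrays than on either scAP array and 1 was lower, against 20.3% and 20% of all genes. The list median was 0.84. At least 2-fold higher without overlap were 32 members in viAPs and 0 in scAPs, against 1.15% and 0.868% of all genes. The 5 that passed were Top2a, Ccnb2, Ckap2, Racgap1 and Kif2c. Top2a, the topoisomerase that untangles chromosomes, had 8.10 and 7.89 in viAPs and 6.48 and 6.36 in scAPs (difference 1.58, standard error 0.11, adjusted p = 0.0461). Ccnb2, a cyclin of mitotic entry, had 8.42 and 8.32 against 7.04 and 6.87 (difference 1.41, adjusted p = 0.0461). Ckap2, a spindle protein, differed by 1.33, Racgap1, of the central spindle in cytokinesis, by 1.24 and Kif2c, a microtubule-depolymerising kinesin, by 1.23. Mki67, the gene of the proliferation antigen Ki67, had 8.68 and 8.22 in viAPs against 6.74 and 6.61 in scAPs and did not pass (difference 1.77, adjusted p = 0.071). Anln, anillin, had the largest difference of the list at 2.04 (adjusted p = 0.0574). The count of 5 was 23 in the fit of 7 arrays, 29 in that of all 8, and 1 after the filter of the study. For Racgap1 the fit of 7 arrays gave an adjusted p of 0.0877 and that of all 8 arrays 0.0511. Of 65 DNA replication genes 0 passed in limma, and the median was 0.26. An unadjusted p under 0.05 was seen for 25, all higher in viAPs, against 8.73% of all genes toward viAPs.

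On SD the median difference of the mitosis list was 0.13 with SD viAP replicate 3 and 0.08 with both SD viAP arrays. Mki67 stood at 6.13 on SD viAP replicate 3 and at 6.04 and 5.70 in SD scAPs, and Ccnb2 at 6.54 against 6.63 and 6.00. Limma's test of the depot difference under HFD minus that under SD was run over all 8 arrays. It gave 55 of the 82 mitosis genes an unadjusted p under 0.05, against 7.34% of all probe sets. Of the 82 genes 0 had an adjusted p under 0.05. The list median of this difference was 0.83, and 0.74 without the array labelled SD viAP replicate 4. The endothelial list, given below, moved the other way.

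Many genes of mitosis carry a CCAAT box and a CHR (cell cycle genes homology region) in their promoters. The CHR takes part in holding them down outside of division. Because the mitosis members moved together, the promoters of the 4 with the largest differences among those that passed are shown, from RefSeq on GRCm38.p6, 250 bases before the start to 30 after, in the direction of the gene. Capitals mark the CHR core TTTGAA and the CCAAT box, on either strand, so that they also read TTCAAA and ATTGG. The regions are chr9:70421525-70421804 for Ccnb2, chr11:99024160-99024439 for Top2a, chr8:22185790-22186069 for Ckap2 and chr15:99651627-99651906 for Racgap1, all on the minus strand.
Ccnb2: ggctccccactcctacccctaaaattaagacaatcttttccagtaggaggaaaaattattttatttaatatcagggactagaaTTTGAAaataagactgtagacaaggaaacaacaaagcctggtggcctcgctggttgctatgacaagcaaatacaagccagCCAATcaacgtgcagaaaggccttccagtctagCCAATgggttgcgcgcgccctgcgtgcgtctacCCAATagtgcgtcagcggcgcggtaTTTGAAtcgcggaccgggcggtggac
Top2a: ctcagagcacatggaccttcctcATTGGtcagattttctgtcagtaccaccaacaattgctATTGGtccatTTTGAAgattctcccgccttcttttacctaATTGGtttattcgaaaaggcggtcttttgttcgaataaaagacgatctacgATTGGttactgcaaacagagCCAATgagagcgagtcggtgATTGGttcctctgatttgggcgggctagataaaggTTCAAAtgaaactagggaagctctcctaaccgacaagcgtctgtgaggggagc
Ckap2: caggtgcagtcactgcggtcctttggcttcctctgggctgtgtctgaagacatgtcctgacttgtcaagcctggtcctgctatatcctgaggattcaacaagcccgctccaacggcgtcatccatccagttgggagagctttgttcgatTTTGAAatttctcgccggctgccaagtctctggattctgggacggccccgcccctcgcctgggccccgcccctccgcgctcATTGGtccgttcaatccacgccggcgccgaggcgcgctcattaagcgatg
Racgap1: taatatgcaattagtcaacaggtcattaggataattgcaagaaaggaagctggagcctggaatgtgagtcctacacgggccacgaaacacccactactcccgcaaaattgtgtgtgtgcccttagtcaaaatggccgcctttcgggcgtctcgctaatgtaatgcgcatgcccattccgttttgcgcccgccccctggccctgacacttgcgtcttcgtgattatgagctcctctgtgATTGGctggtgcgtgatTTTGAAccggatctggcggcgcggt

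Each of the 4 held both words, with 2 CHR cores in Ccnb2 and Top2a and 1 in Ckap2 and Racgap1. Of the 77 promoters of 69 mitosis genes on file 45 (58.4%) held a CHR core and 57 (74%) a CCAAT box, against 17.2% and 36.1% of all 32851 promoters of the same length. The 63 promoters of replication genes had a CHR core in 15.9% and a CCAAT box in 60.3%. For the genes that passed as higher in viAPs the shares were 19.4% and 33.3% of 72 promoters, and for those higher in scAPs 19.6% and 39.1% of 46. A match of letters is a description and no measured site.

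Some markers of endothelial cells were higher in scAPs. Of 31 endothelial markers 0 passed in viAPs, 4 in scAPs (Robo4 -1.45, Flt1 -1.38, Plvap -1.27 and Mmrn2 -1.18) and 27 did not pass, and 26 were higher in scAPs without overlap, against 20% of all genes. The number passing in scAPs was 13 with 7 arrays, 13 with all 8 and 2 after the filter of the study. Their median was -0.64, and their summed linear intensity was 6046 and 6035 on the viAP arrays and 7989 and 7644 on the scAP arrays. Pecam1, the gene of the CD31 used for depletion, had 6.07 and 5.70 in viAPs and 7.78 and 7.70 in scAPs (difference -1.86, adjusted p = 0.0545). Cdh5, VE-cadherin, had 6.77 and 5.46 against 8.88 and 8.75 (difference -2.70, adjusted p = 0.143). On the SD arrays the endothelial sum was 4326 to 5048 and the median depot difference -0.08. Limma's test of the HFD depot difference minus the SD one, over all 8 arrays, gave 20 of the 31 an unadjusted p under 0.05. The share of all probe sets was 7.34%, and 0 of the 31 had an adjusted p under 0.05. Their median in this test was -0.82, and -0.73 without the array labelled SD viAP replicate 4. The part of endothelial cells in the differences of Robo4, Ednrb and the other scAP genes was not tested. Of 36 genes of the interferon response and antigen presentation 0 passed in limma (median -0.41). An unadjusted p under 0.05 was seen for 1 in viAPs and 18 in scAPs, against 8.73% and 7.59% of all genes. Without overlap 1 was higher in viAPs and 26 in scAPs, against 20.3% and 20% of all genes. Among these Psmb8, an immunoproteasome subunit, had -1.05 (adjusted p = 0.056) and Iigp1, an interferon-induced GTPase, -1.65 (adjusted p = 0.0805). On SD this list had a median of -0.51 with viAP replicate 3 and of -0.31 with both SD viAP arrays.

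Of 25 mesothelial markers 5 passed as higher in viAPs, Aldh1a2, Wt1, Rspo1, Nkain4 (1.56) and Ezr (1.30), and Igfbp5 passed in scAPs. The remaining 19 did not pass and the median was 0.29. Without overlap 12 of the 25 were higher in viAPs and 3 in scAPs, against 20.3% and 20% of all genes. On SD the list median was 0.60 with viAP replicate 3 and 0.37 with both SD viAP arrays. The keratins and the surface markers Msln, Muc16 and Upk1b were dim and did not pass, and the part of mesothelial cells in the differences of Wt1, Aldh1a2 and Rspo1 was not tested. Msln, mesothelin, stood between 5.00 and 5.61 on the 4 arrays and Krt19 between 5.39 and 6.09, and the groups overlapped for both. Upk3b, the uroplakin of mesothelium, had 6.55 and 7.08 in viAPs and 5.93 and 5.58 in scAPs (difference 1.06, adjusted p = 0.192). The summed intensity of the list was 5788 and 6094 in viAPs and 6923 and 7779 in scAPs. Without Igfbp5 it was 5425 and 5586 in viAPs and 3275 and 3238 in scAPs, so that this 1 gene turned the order. Of 20 pericyte and smooth muscle markers Des passed in viAPs and Abcc9 in scAPs (median 0.06). Of 27 macrophage, 22 lymphocyte, 22 skeletal muscle, 20 epidermis and 4 erythroid genes 0 passed in limma. In this order 5, 3, 0, 1 and 1 had an unadjusted p under 0.05 toward scAPs. Toward viAPs the numbers were 0, 0, 1, 1 and 0. Of all genes 7.59% had such a p toward scAPs and 8.73% toward viAPs. Of the 12 symbols of the erythroid list only 4 were measured, so that its 0 holds for these alone. The study's supplementary tables list the globins Hba-a2 and Hbb-bs, in scAPs, as higher under HFD than under SD. Of 13 Schwann cell genes the cadherin Cdh19 alone passed, in scAPs, and 12 did not pass (median -0.05). Cdh19 had 3.46 on both viAP arrays against 4.70 and 4.81 in scAPs (difference -1.29), all dim levels. With a pseudocount of 16 it no longer passed. The summed intensity of the Schwann cell list was 6820 and 6615 in viAPs and 5644 and 4749 in scAPs. Of 22 epididymal and germ cell genes 0 passed, with 1 at an unadjusted p under 0.05. Among the HFD arrays the sperm protamines Prm1 and Prm2 were highest on viAP replicate 6, at 7.69 and 8.27, against 5.61 and 6.02 on viAP replicate 5 (adjusted p = 0.603 and 0.549).

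**Figure D4:**
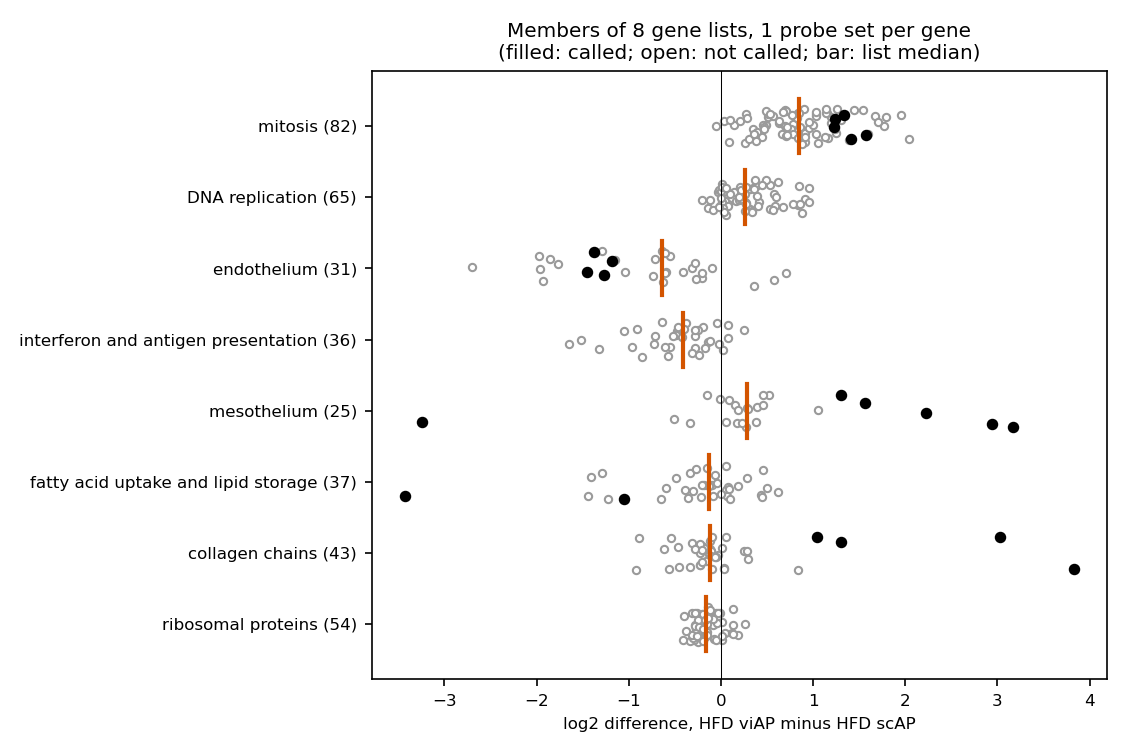
Log2 difference between HFD viAPs and HFD scAPs (horizontal axis) of the measured members of 8 gene lists (vertical axis, number of members in parentheses), 1 point per gene, filled where it passed, with a bar at the list median. The mitosis list lies to the right with a median of 0.84 and the endothelial list to the left with -0.64. The ribosomal proteins run from -0.41 to 0.27 with a median of -0.16. Of these 54 genes 5 were higher in viAPs and 23 in scAPs without overlap, against 20.3% and 20% of all genes, and 0 passed.

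The SD values of these probe sets are given as a description. SD viAP replicate 3 was kept because the array labelled replicate 4 had scAP levels of depot genes, so that the values rest on 1 viAP array chosen with such genes in view and are no independent test. Of the 97 probe sets higher in HFD viAPs 94 (96.9%) had a difference of the same sign between SD viAP replicate 3 and the mean of the SD scAP arrays, and 65 were at least 2-fold. Of all probe sets with an HFD difference toward viAPs 61.6% had the same sign. Of the 48 higher in HFD scAPs 47 (97.9%) had the same sign, against 55.1% of all toward scAPs, and 31 were at least 2-fold. The median difference of the first group was 1.68 under HFD and 1.24 under SD, and of the second -1.49 and -1.11. The probe sets were chosen by their HFD difference, which favors large values there. The smaller SD medians are therefore no measure of an effect of diet. With both SD viAP arrays 91 of the 97 had the same sign, against 58.9% of all toward viAPs, and 44 of the 48, against 51.9% of all toward scAPs. In all 135 of the 145 then had the same sign, against 141 with replicate 3, and the medians under SD were 0.66 and -0.58. Tbx15 had a difference of -4.80 under SD, Tcf21 of 4.32, Il1r2 of -5.19 and Hp of 4.80. With both SD viAP arrays these were -2.26, 2.18, -2.98 and 2.28. Lcn2 had a larger value under SD, at 4.30, with 10.26 on SD viAP replicate 3 against 5.95 on both SD scAP arrays. Thbs2 had -2.89 under SD against -1.51 under HFD.

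Limma's test of the depot difference under HFD minus that under SD called 1 probe set over all 8 arrays, that of Col8a1 (0.00459% of those tested). Its log2 level was 6.60 on SD viAP replicate 3, 6.73 on the array labelled replicate 4 and 6.54 and 6.58 in SD scAPs, against 9.26 and 9.16 in HFD viAPs. The 2 depot differences differed by 2.93 (adjusted p = 0.00242). Without the array labelled SD viAP replicate 4 the value was 3.00 and the adjusted p 0.0561, and 0 probe sets passed. Of all probe sets 1600 had an unadjusted p under 0.05 with 8 arrays and 1422 with 7. Robo4 had a depot difference of -1.45 under HFD and 0.04 under SD (adjusted p = 0.492 for the difference with 7 arrays), Top2a of 1.58 and 0.09 (adjusted p = 0.523), and Pparg of -1.26 and -0.22 (adjusted p = 0.638). With both SD viAP arrays the SD differences were 0.05, -0.01 and 0.14, and the adjusted p-values with all 8 arrays 0.177, 0.186 and 0.343.

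**Figure D5:**
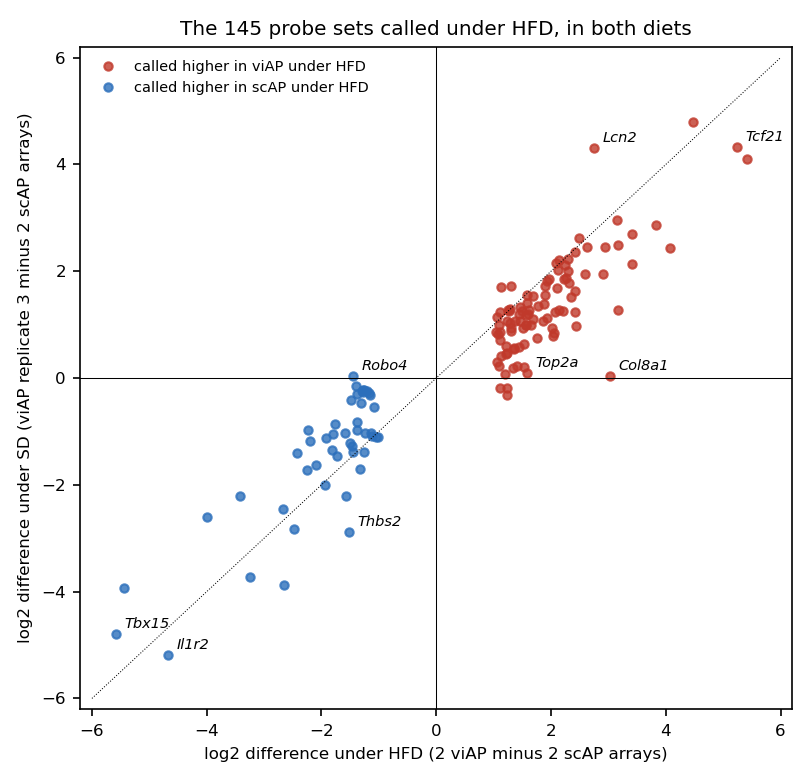
Log2 depot difference under SD (vertical axis, viAP replicate 3 minus the mean of 2 scAP arrays) against that under HFD (horizontal axis, mean of 2 viAP minus mean of 2 scAP arrays) for the 145 probe sets that passed under HFD, red higher in viAPs and blue higher in scAPs, with a dotted line where both are equal. Of these 141 lie on the same side of 0 in both diets, and Col8a1 lies at 3.03 under HFD and 0.04 under SD. The probe sets were chosen by their HFD difference, so that smaller SD differences can follow from the choice.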

How the data were processed

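RNA of bead-purified adipose precursors was hybridized to 8 Affymetrix Mouse Gene 1.0 ST arrays, of which 4 entered the main comparison. For every probe set the authors deposited an intensity on each array, summarized by RMA with quantile normalization. The values are linear and whole. RMA and the Affymetrix Expression Console 1.1 are named in the processing notes of the submitters, the study's methods name an R package, and the antilog and rounding are not given in the sources used here. Intensities were converted to log2. Platform annotation gave 21789 probe sets 1 symbol, 1621 several and 12146 none, and 21698 of the first were found in RefSeq by Entrez ID. Groups were taken from the sample labels. The p-values measure the spread between pools of 3 mice, and the number of arrays limits the precision.

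The 4 HFD arrays alone were fitted in R 4.3.3 by lmFit and eBayes of limma 3.58.1, which left 2 residual degrees of freedom and a prior of 1.57, with Benjamini-Hochberg adjustment over 21789 probe sets, and tested on simulated data. A probe set passed at an adjusted p under 0.05 and at least 2-fold. The SD depot difference used SD viAP replicate 3, since the array labelled SD viAP replicate 4 has scAP levels of depot genes. A fit of all 8 arrays and the filter of the study were tried as alternatives, with others given at the end. Gene lists (50, for 1538 measured genes) used 1 probe set per gene and were described by counts and medians. The genes named are the 4 depot markers, the depot genes of the study and Hmox1, the 12 passing genes with the largest difference in each direction whose arrays do not overlap (Gm genes, Rik clones and the like left out), and at most 4 passing members per list. Genes given with values although they did not pass, the Hox C genes, Kif2c, Osr2, Emx2, Fbln7, Nkain4, Ezr and the Prm genes were chosen after their values were seen. The comparison, the members and the lists were chosen with earlier results of these data known.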

Additional observations from a re-analysis of the deposited data

Results flagged for a closer look

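Col8a1 was picked out because its depot difference was not the same in the 2 diets. The difference under HFD exceeded that under SD by 2.93 on the log2 scale (limma interaction over all 8 arrays, adjusted p = 0.00242). HFD viAP replicates 5 and 6 stood at 9.26 and 9.16, and the other 6 arrays between 6.09 and 6.73. With 7 arrays, without the one labelled SD viAP replicate 4, the value was 3.00 and the adjusted p 0.0561. The cause of the difference was not tested. Groups of 2 arrays are too small to test a single array as an outlier.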

How the results depend on the processing

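The 67 probe sets given by the naming rule kept their direction under every alternative in which they were tested (52 of them after the filter of the study and 44 at a mean log2 level above 7). The other genes named were not followed in this way. The 145 passing probe sets (97 higher in viAPs and 48 in scAPs) became 258 (185 and 73) with all 8 arrays, of which 87 were among the 145, and 405 (276 and 129) with the 7 arrays without the one labelled SD viAP replicate 4, of which 144 were. The filter of the study gave 238 (105 in scAPs), a mean log2 level above 7 gave 79 in scAPs, median centring 486 (304 and 182), a second quantile normalization 455 (289 and 166), and trended robust moderation 485 (315 and 170). Genes on lists that passed numbered 63, and 95, 141, 104, 96, 172, 162 and 171 under these 7 settings in the same order. With a pseudocount of 16 the total was 164 and with no minimum fold 156. Leaving out any 1 HFD array left 0 passing probe sets in limma in either direction and 0 on lists, with a smallest adjusted p of 0.248 to 0.483 and 2231 to 4075 probe sets at an unadjusted p under 0.05. With 3 arrays 1 residual degree of freedom remains, and the lone array is assumed to vary like the other group. With all 8 arrays 29 of the 64 passing probe sets of the naming rule no longer passed. A pseudocount of 16 ended 7 calls, Racgap1 no longer passed with 7 arrays, and Col6a6 fell under 2-fold after the second quantile normalization (0.98). The interaction called 1 probe set with 8 arrays and 0 with 7. The cause of these changes was not tested. The median over all probe sets was -0.03 after median centring and -0.02 after the second quantile normalization, against -0.01 as reported. No paired analysis was made, because the sample labels number the arrays 1 to 8 and the groups share no number. The study's supplementary tables number the arrays within each group, without saying that equal numbers share mice. Whether the same mice gave both depots is not stated in the sources used here. The arrays were treated as independent. Levels near the lowest intensities are bounded by background and by rounding, so their differences may be understated.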
